A study of Mus musculus with 16 samples.

Results

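The expression of 10 genes of the FGF-ERK pathway was followed: the ligand gene Fgf4, the receptor genes Fgfr1 and Fgfr2, the feedback inhibitor genes Spry2, Spry4, Dusp6 and Spred1, and the transcription factor genes Etv4, Etv5 and Egr1. Every probe set assigned to exactly 1 gene symbol was taken if that symbol was among these 10 genes, without regard to its values. This gave 20 of the 20380 probe sets with 1 symbol on the array, which stand for 10 of 12393 genes. Fgf4 had 4 probe sets, Spred1 had 3, Dusp6, Etv4 and Egr1 had 1 each, and the remaining 5 genes had 2 each. All 20 were tested, and no filter on low values was applied.

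In mouse embryonic stem (ES) cells, FGF4 is secreted by the cells themselves and binds FGF receptors on the same and on neighbouring cells. The receptors activate RAS, RAF, MEK and ERK in turn, and ERK phosphorylates transcription factors that switch on immediate-early genes such as Egr1, the ETS factor genes Etv4 and Etv5, and the inhibitors of the pathway itself. Sprouty and SPRED proteins act on the pathway between the receptor and RAF, and DUSP6 removes phosphate from ERK. The pathway is best known in these cells for moving them away from the naive state and towards differentiation.

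The study asked what changes in gene expression when TGIF1 or TGIF2, related homeodomain repressors, is depleted or overexpressed. All cells were of the J1 strain and grew on gelatin in medium with fetal bovine serum and leukemia inhibitory factor. RNA was hybridised to 16 Affymetrix Mouse 430A 2.0 arrays in 5 groups: 2 arrays of a Tgif1 knockdown (Tgif1 KD), 2 of its control (shControl), 4 of an overexpression control that carries BirA, a bacterial biotin ligase (BirA control), 4 labelled Tgif1 overexpression (Tgif1 OE) and 4 labelled Tgif2 overexpression (Tgif2 OE). The labels do not name the hairpin, the promoters of the transgenes, the number of clones or the time of harvest. Nothing says that replicates came from separate cultures; the spread behind each p-value is that of these arrays and may be technical. The values are log2 intensities, and a change is a difference of group means on that scale with its standard error (SE). A probe set was called when the adjusted p of limma over all 20380 probe sets was under 0.05.

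The knockdown was seen on the arrays: Tgif1 averaged 7.29 on Tgif1 KD and 10.69 on shControl, a change of -3.39 ± 0.10 (SE; limma, adjusted p = 7.04e-11), while Tgif2 rose by 0.81. Against BirA control, Tgif1 itself fell by 0.58 ± 0.07 (limma, adjusted p = 7.51e-05) and Tgif2 by 0.45 ± 0.07 (2.47e-04) on the arrays labelled Tgif1 OE. On those labelled Tgif2 OE, Tgif1 fell by 0.53 ± 0.07 (limma, adjusted p = 1.24e-04) and Tgif2 changed by -0.01 ± 0.07 (0.967). Directions drawn from these arrays are therefore those of the labels alone. The Tgif2 OE arrays lay above BirA control by a median of 0.11 over all probe sets, so changes that involve them were tested after each array's median shift was removed, while the values given per array are as deposited. In the overexpression arm, taken over all probe sets, replicates 1 and 2 tended to differ from replicates 3 and 4 in the same way in all 3 groups. Changes within each set of replicates and with the set as a block are given where they matter. ES cell markers were high on all arrays, but their level moved with the groups. The mean of 8 such genes ran from 12.48 to 12.51 on shControl, from 12.80 to 12.83 on Tgif1 KD, from 12.26 to 12.49 on BirA control, from 11.90 to 12.18 on Tgif1 OE and from 12.07 to 12.39 on Tgif2 OE. In the knockdown 1 of the 8 rose (Tdgf1) and 0 fell (limma). On Tgif1 OE 0 rose and 3 fell (limma; Nanog by 0.69, Zfp42 by 0.35 and Esrrb by 1.08), and on Tgif2 OE 0 rose and 1 fell (Esrrb, by 0.73). The mean of 10 trophectoderm markers ran from 6.01 to 6.06 on BirA control, from 6.52 to 6.92 on Tgif1 OE and from 6.25 to 6.81 on Tgif2 OE, where 4 and 5 of them rose and 1 fell in each. That of 14 fibroblast markers ran from 5.03 to 5.24, from 5.54 to 5.96 and from 5.35 to 5.78 in the same order, with 7 and 3 of them higher and 1 and 0 lower (limma). The mean of 12 primitive endoderm markers was 6.21 to 6.22 on shControl and 6.56 on both Tgif1 KD arrays, with 5 higher and 0 lower (limma). The 5′ minus 3′ difference of the Gapdh control probe sets, a sign of RNA quality, was -0.22 to -0.21 on shControl and -0.10 to -0.08 on Tgif1 KD. In the overexpression arm it was higher in replicates 3 and 4 than in replicates 1 and 2 of each group. The part of these values in the results was not tested.

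RefSeq promoters (GRCm38.p6, 250 bases before to 50 bases after the start) were found for 6 of the 10 genes. Those of Fgf4, Fgfr2 and Dusp6 are shown because the results below turn on these genes. Capitals mark TGTCA or its reverse complement TGACA, the core motif of TGIF homeodomains, which 45.4% of 32851 promoters of this length hold on either strand. In Dusp6 they also mark CTTCCG, the reverse complement of the ETS motif CGGAAG, which 16.9% of promoters hold on either strand. The Fgf4 window is chr7:144861136-144861435 (plus strand), the Fgfr2 window chr7:130266759-130267058 (minus strand) and the Dusp6 window chr10:99262981-99263280 (plus strand).
Fgf4: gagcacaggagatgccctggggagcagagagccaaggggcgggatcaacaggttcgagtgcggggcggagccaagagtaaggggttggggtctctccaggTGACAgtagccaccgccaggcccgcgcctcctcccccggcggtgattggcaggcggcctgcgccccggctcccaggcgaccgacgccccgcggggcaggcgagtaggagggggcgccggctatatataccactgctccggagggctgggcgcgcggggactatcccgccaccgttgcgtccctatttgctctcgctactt
Fgfr2: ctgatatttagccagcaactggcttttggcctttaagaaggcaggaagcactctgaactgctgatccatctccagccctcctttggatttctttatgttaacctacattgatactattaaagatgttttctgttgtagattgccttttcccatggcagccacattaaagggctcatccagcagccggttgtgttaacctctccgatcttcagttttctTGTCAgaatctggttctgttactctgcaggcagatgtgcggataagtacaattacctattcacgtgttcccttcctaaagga
Dusp6: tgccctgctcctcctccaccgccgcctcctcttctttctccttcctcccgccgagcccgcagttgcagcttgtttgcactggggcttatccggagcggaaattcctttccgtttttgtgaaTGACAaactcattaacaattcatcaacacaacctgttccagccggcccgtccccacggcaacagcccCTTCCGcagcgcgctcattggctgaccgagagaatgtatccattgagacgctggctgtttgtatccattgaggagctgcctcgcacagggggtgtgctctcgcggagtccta
The TGIF core starts at -150 in the Fgf4 promoter, at -32 in that of Fgfr2 and at -129 in that of Dusp6, and the ETS core of Dusp6 at -62. No TGIF core was found in the promoters of Etv5, Spry2 and Spred1, which are not shown. The Spred1 promoter also holds the ETS core, at -17, and its reverse complement, at 8. A match describes the letters and is no evidence of binding.

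In the Tgif1 knockdown, 4 of the 20 probe sets rose and 1 fell, against 11.8% and 11.3% of all probe sets. The 5 calls came from 3 genes: Fgf4 and Dusp6 rose and Spry4 fell. On the arrays labelled Tgif1 OE, 3 rose and 5 fell (9.25% and 9.4% of all), with Fgfr2 and Dusp6 higher and Fgf4, Spry2, Spry4 and Egr1 lower. On those labelled Tgif2 OE, 4 rose and 5 fell (12.1% and 12% of all), with Fgfr1, Fgfr2 and Dusp6 higher and Fgf4, Spry2, Spry4 and Spred1 lower. The overexpression comparisons share the BirA control arrays. The median change of the 20 probe sets was 0.14 in the knockdown, -0.24 on Tgif1 OE and -0.16 on Tgif2 OE, beside medians of all genes of -0.05, 0.01 and 0.00. These measures are unlike: the first counts a gene once for each of its probe sets, the second takes only its brightest.

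With the set of replicates as a block, an alternative chosen after seeing the data, the counts were 5 higher and 1 lower in the knockdown (17% and 18.4% of all probe sets). They were 4 and 9 on Tgif1 OE (14.7% and 15.5%), and 5 and 9 on Tgif2 OE (17.9% and 18.4%). With replicates 1 and 2 averaged to 1 value, and likewise 3 and 4, limma called 0 of the 20 on Tgif1 OE (9 at an unadjusted p under 0.05) and 2 on Tgif2 OE, both of Fgfr2.

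**Figure D1:**
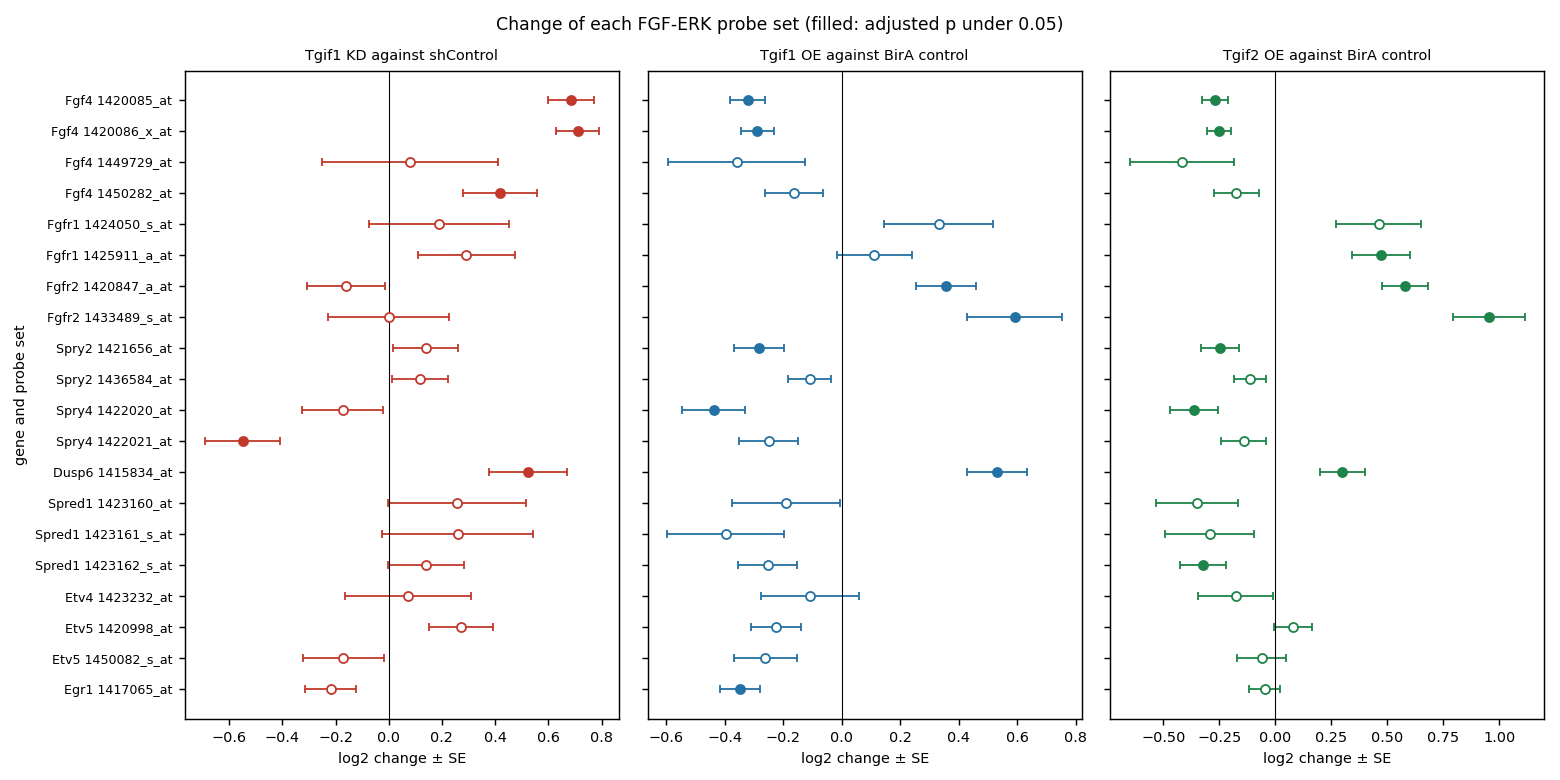
Log2 change ± SE of each of the 20 probe sets (rows) in the 3 comparisons with a control (panels). The x axes differ in range, and filled points have a limma adjusted p under 0.05. Those of Fgf4 lie to the right in the knockdown (0.69 and 0.71) and to the left on Tgif1 OE (-0.32 and -0.29), while Dusp6 lies to the right in all 3 panels (0.52, 0.53 and 0.30).

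Fgf4, the FGF that ES cells secrete, moved in opposite directions in the knockdown and on the overexpression arrays. Its brightest probe set, 1420085_at, read 10.67 and 10.71 on shControl and 11.42 and 11.34 on Tgif1 KD. It read 10.71, 10.71, 10.83 and 10.83 on BirA control, 10.38, 10.45, 10.50 and 10.46 on Tgif1 OE, and 10.64, 10.70, 10.48 and 10.65 on Tgif2 OE. Both knockdown arrays lay above both control arrays, and every Tgif1 OE and Tgif2 OE array lay below every BirA control array. In the knockdown the change was 0.69 ± 0.09 (SE; 1.61-fold; limma, adjusted p = 3.94e-05), and 0.71 ± 0.08 for 1420086_x_at (1.93e-05), a probe set whose suffix warns of probes shared with other transcripts. On Tgif1 OE these probe sets fell by 0.32 ± 0.06 (limma, adjusted p = 0.00157) and 0.29 ± 0.06 (0.00245). On Tgif2 OE they fell by 0.27 ± 0.06 (limma, adjusted p = 0.00338) and 0.25 ± 0.06 (0.00394). These 6 calls held with each array left out. On deposited values, without the shift removed, the Tgif2 OE calls were lost, as they were in replicates 1 and 2 alone (-0.17 and -0.13, against -0.37 and -0.37 in replicates 3 and 4). With array pairs averaged, the calls on Tgif1 OE (limma, adjusted p = 0.0764 and 0.113) and Tgif2 OE (0.101 and 0.124) were lost. The array data come from whole cultures, in which fewer cells of a type and less RNA per cell cannot be told apart.

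The other Fgf4 probe sets gave less. Probe set 1450282_at read 7.60 and 7.76 on shControl and 8.12 and 8.08 on Tgif1 KD, a rise of 0.42 ± 0.14 (limma, adjusted p = 0.0427). That call was lost without any 1 of the 4 knockdown-arm arrays (0.34 to 0.49, highest adjusted p 0.222). It changed by -0.16 on Tgif1 OE and -0.17 on Tgif2 OE, with overlapping groups. Probe set 1449729_at, with values between 4.36 and 5.77, changed by 0.08, -0.36 and -0.42 in the 3 comparisons with no call. With the set of replicates as a block the last of these passed (adjusted p = 0.0229, and 0.0333 with the replicate number as a block).

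**Figure D2:**
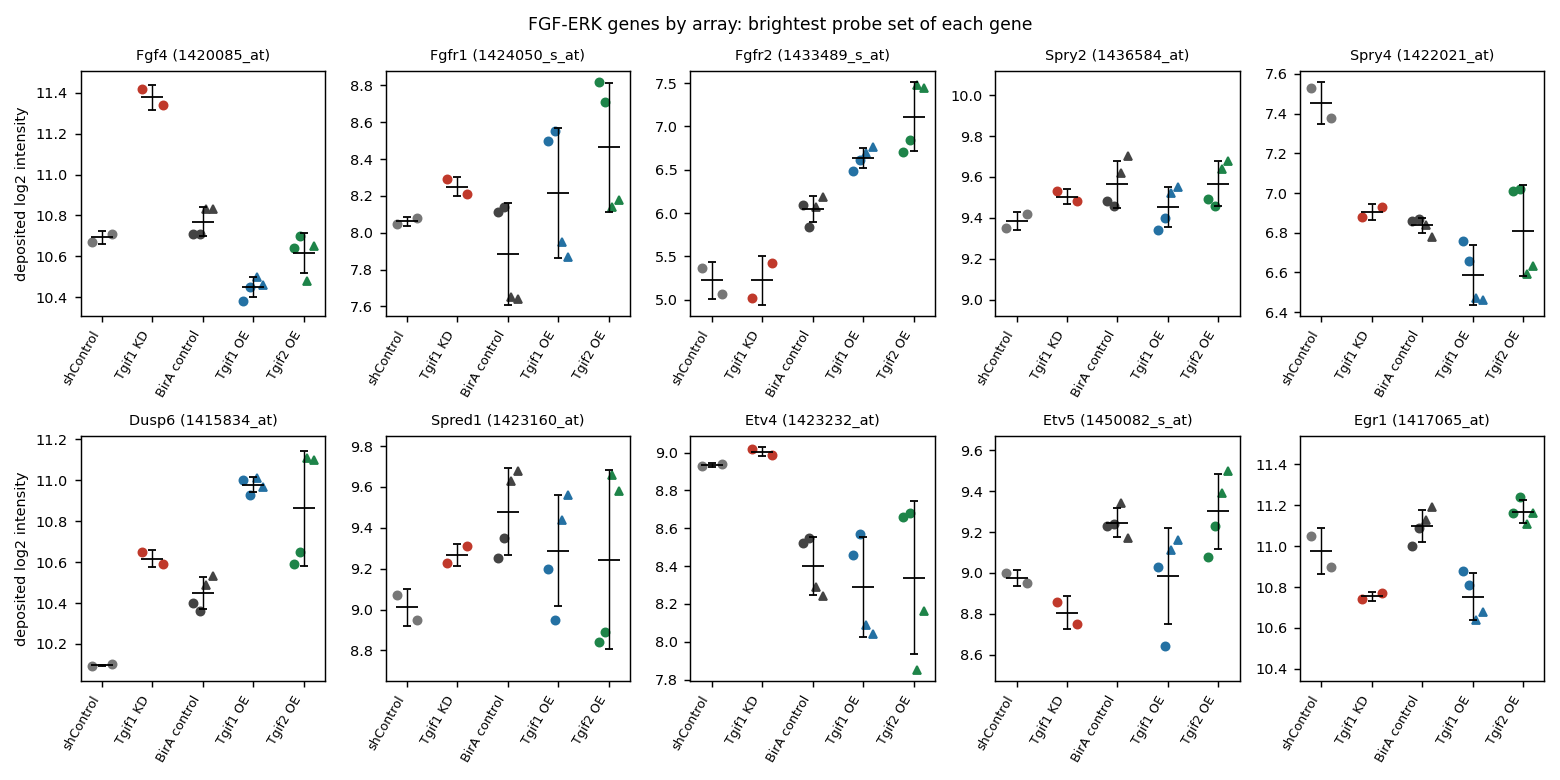
Deposited log2 intensity (y axis) on each of the 16 arrays for the probe set of each gene with the highest mean (panels), by group (x axis). Circles in the overexpression arm are replicates 1 and 2 and triangles replicates 3 and 4, and the bar and whiskers are the mean ± SD (n = 2 or 4). Fgf4 is highest on Tgif1 KD (11.34 and 11.42), and Fgfr1, Spred1 and Etv4 separate the sets of replicates in each overexpression-arm group.

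Fgfr2, the receptor that binds FGFs secreted by neighbouring cells and is the main FGF receptor of early trophoblast, was higher on the arrays labelled Tgif1 OE and Tgif2 OE. Its probe set 1433489_s_at read 6.09, 5.84, 6.07 and 6.19 on BirA control, 6.49, 6.61, 6.69 and 6.76 on Tgif1 OE, and 6.70, 6.84, 7.48 and 7.44 on Tgif2 OE. All overexpression arrays lay above all BirA control arrays. The rise was 0.59 ± 0.16 (SE; limma, adjusted p = 0.0182) on Tgif1 OE and 0.95 ± 0.16 (1.94-fold; 5.64e-04) on Tgif2 OE. Probe set 1420847_a_at rose by 0.36 ± 0.10 (limma, adjusted p = 0.0253) and 0.58 ± 0.10 (9.16e-04). Within sets, the rise of 1433489_s_at on Tgif1 OE was 0.59 in both, while on Tgif2 OE it was 0.68 in replicates 1 and 2 and 1.23 in replicates 3 and 4. Both Tgif2 OE calls held in every alternative that was run. Those on Tgif1 OE did not: 1433489_s_at was lost without Tgif1 OE replicate 4 (0.55, adjusted p = 0.0536) or BirA control replicate 2 (0.52, 0.0591), and 1420847_a_at without any of Tgif1 OE replicates 1 and 3 and BirA control replicates 1, 2 and 3 (0.31 to 0.36, highest 0.0783). In the knockdown arm, 1433489_s_at read 5.37 and 5.07 on shControl and 5.02 and 5.42 on Tgif1 KD, with a change of 0.00 and a 95% interval of -0.49 to 0.49.

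Fgfr1, the main FGF receptor of ES cells, showed a rise that depended on how the sets of replicates were treated. Probe set 1424050_s_at read 8.11, 8.14, 7.65 and 7.64 on BirA control, 8.50, 8.55, 7.95 and 7.87 on Tgif1 OE, and 8.82, 8.71, 8.14 and 8.18 on Tgif2 OE. The groups overlapped, but within each set of replicates every overexpression array lay above the BirA control arrays. The change on Tgif1 OE was 0.33 ± 0.19 without the block (limma, adjusted p = 0.265) and 0.33 ± 0.05 with the set as a block (8.81e-05; 0.0010 with the replicate number as a block). On Tgif2 OE it was 0.46 ± 0.19 (limma, adjusted p = 0.0937) and 0.46 ± 0.04 with the set as a block (2.86e-06; 6.71e-05 with the replicate number), and it also passed on deposited values, without the shift removed. The dimmer probe set 1425911_a_at rose on Tgif2 OE by 0.47 ± 0.13 (limma, adjusted p = 0.0163), a call lost without Tgif2 OE replicate 1 (0.41, 0.0502). With replicates 1 and 2 averaged to 1 value, and likewise 3 and 4, limma called no Fgfr1 probe set in either overexpression comparison. In the knockdown, 1424050_s_at read 8.05 and 8.08 on shControl and 8.29 and 8.21 on Tgif1 KD. That change of 0.19 did not pass without a block (limma, adjusted p = 0.672). It passed with the set as a block (0.0371) and with overexpression replicates 1 and 2 or 3 and 4 alone, settings that here alter only the pooled spread.

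**Figure D3:**
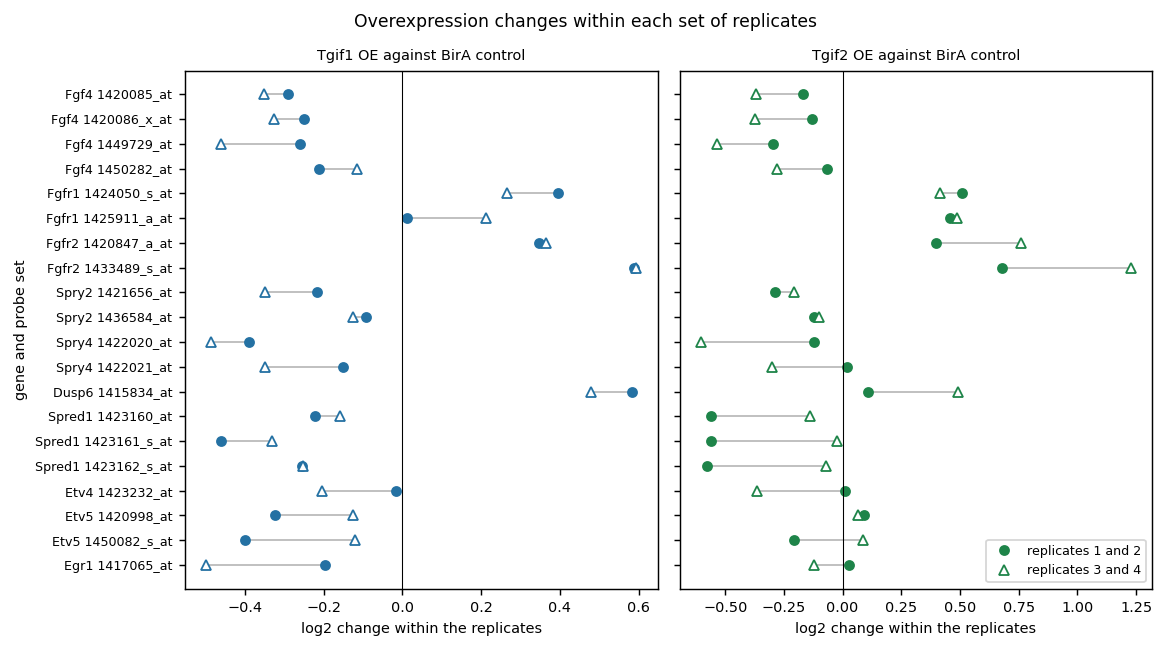
Log2 change on Tgif1 OE and Tgif2 OE against BirA control (panels) computed in replicates 1 and 2 alone (circles) and replicates 3 and 4 alone (triangles) for each probe set (rows), with x axes of different range. Fgfr1 1424050_s_at is to the right of 0 in both sets (0.40 and 0.27 on Tgif1 OE), while the Dusp6 change on Tgif2 OE is 0.11 in one set and 0.49 in the other.

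Dusp6, which encodes the ERK phosphatase, rose in all 3 comparisons. Its single probe set read 10.09 and 10.10 on shControl and 10.65 and 10.59 on Tgif1 KD. It read 10.40, 10.36, 10.49 and 10.53 on BirA control, 11.00, 10.93, 11.01 and 10.97 on Tgif1 OE, and 10.59, 10.65, 11.11 and 11.10 on Tgif2 OE. The deposited values of perturbed and control arrays did not overlap in any of the 3, although those of Tgif2 OE did once the shift was removed. The rise was 0.52 ± 0.15 (SE; 1.44-fold; limma, adjusted p = 0.0172) in the knockdown and 0.53 ± 0.10 (1.45-fold; 0.00204) on Tgif1 OE. On Tgif2 OE it was 0.30 ± 0.10 (limma, adjusted p = 0.0455), with 0.11 in replicates 1 and 2 and 0.49 in replicates 3 and 4. The Tgif1 OE call held with each array left out. It was lost with replicates 1 and 2 averaged to 1 value, and likewise 3 and 4 (limma, adjusted p = 0.0731). So was the Tgif2 OE call (limma, 0.254), which also failed with quantile normalization, with only the groups compared and in replicates 1 and 2 alone. The knockdown call was lost without any 1 of its 4 arrays (0.50 to 0.55, highest adjusted p 0.0966), and the Tgif2 OE call without any array but Tgif2 OE replicates 1 and 2 (0.22 to 0.33, highest 0.142).

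Spry4, a Sprouty inhibitor of RAS activation, was lower in all 3 comparisons, but not by the same probe set. Probe set 1422021_at read 7.53 and 7.38 on shControl and 6.88 and 6.93 on Tgif1 KD, a fall of 0.55 ± 0.14 (limma, adjusted p = 0.0109) with no overlap. That call was lost without Tgif1 KD replicate 1 (-0.52, 0.0711) or shControl replicate 1 (-0.48, 0.0913). Probe set 1422020_at changed there by -0.17 with overlapping groups. On the overexpression arrays, 1422020_at read 5.72, 5.56, 5.77 and 5.81 on BirA control, 5.18, 5.33, 5.28 and 5.33 on Tgif1 OE, and 5.77, 5.53, 5.22 and 5.36 on Tgif2 OE. It lay below every BirA control value on all 4 Tgif1 OE arrays, while the Tgif2 OE arrays overlapped the control. The change was -0.44 ± 0.11 (limma, adjusted p = 0.0103) on Tgif1 OE. This call held with each array left out, but not in replicates 1 and 2 alone (-0.39) or with array pairs averaged (limma, 0.156). The change on Tgif2 OE was -0.36 ± 0.11 (limma, adjusted p = 0.0225), with -0.12 in replicates 1 and 2 and -0.60 in replicates 3 and 4. The Tgif2 OE call was lost without replicate 3 or 4 of Tgif2 OE or of BirA control (-0.28 to -0.35, highest adjusted p 0.0750). It was also lost on deposited values and in replicates 1 and 2 alone. The brighter probe set 1422021_at changed by -0.25 on Tgif1 OE. It passed there with a block (adjusted p = 0.00841 with the set, 0.0255 with the replicate number, 0.103 without) and in replicates 3 and 4 alone (-0.35). On Tgif2 OE it changed by -0.14 and passed in replicates 3 and 4 alone (-0.30).

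Spry2, also a Sprouty gene, fell on the overexpression arrays by its dimmer probe set. Probe set 1421656_at read 7.24, 7.23, 7.42 and 7.47 on BirA control, 7.01, 7.02, 7.05 and 7.14 on Tgif1 OE, and 6.98, 7.17, 7.32 and 7.36 on Tgif2 OE. The Tgif1 OE arrays lay below all BirA control arrays, whereas the Tgif2 OE arrays did so only after the shift was removed. The change was -0.28 ± 0.09 (limma, adjusted p = 0.0308) on Tgif1 OE and -0.25 ± 0.08 (0.0445) on Tgif2 OE. The first was lost without Tgif1 OE replicates 1, 2 or 3 or BirA control replicates 3 or 4 (-0.24 to -0.28, highest adjusted p 0.0879), the second without Tgif2 OE replicates 1 or 2 or BirA control replicates 3 or 4 (-0.17 to -0.24, highest 0.135), and also on deposited values. The brighter 1436584_at changed by -0.11 ± 0.07 in both and passed only on Tgif2 OE with the set as a block (adjusted p = 0.0426). In the knockdown the Spry2 changes were 0.14 and 0.12, with no call.

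Spred1, whose product holds back RAF activation, had 3 probe sets, of which 1423160_at and 1423161_s_at followed the sets of replicates in all 3 overexpression-arm groups and 1423162_s_at did not. Probe set 1423160_at read 9.25, 9.35, 9.63 and 9.68 on BirA control, 9.20, 8.95, 9.44 and 9.56 on Tgif1 OE, and 8.84, 8.89, 9.66 and 9.58 on Tgif2 OE. In this probe set replicates 3 and 4 exceeded replicates 1 and 2 in each group, by 0.36, 0.42 and 0.75, and the groups overlapped. The one call was a fall of 1423162_s_at on Tgif2 OE, by 0.32 ± 0.10 (limma, adjusted p = 0.0315), which was -0.58 in replicates 1 and 2 and -0.07 in replicates 3 and 4. It was lost without Tgif2 OE replicates 1 or 2 or BirA control replicates 1, 2 or 3 (-0.25 to -0.32, highest adjusted p 0.0971) and on deposited values. With the set as a block, 1423160_at passed on Tgif2 OE (-0.35, adjusted p = 0.00545; 0.0163 with the replicate number) and 1423161_s_at on Tgif1 OE (-0.40, 0.00630; 0.0175) and Tgif2 OE (-0.29, 0.0359; not with the replicate number). In the knockdown the 3 changes lay between 0.14 and 0.26, with no call.

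Egr1, an immediate-early transcription factor gene, was lower on the arrays labelled Tgif1 OE and not on those labelled Tgif2 OE. It read 11.00, 11.09, 11.13 and 11.19 on BirA control, 10.88, 10.81, 10.64 and 10.68 on Tgif1 OE, and 11.16, 11.24, 11.11 and 11.16 on Tgif2 OE. All Tgif1 OE arrays lay below all arrays of the other groups of that arm. The change on Tgif1 OE was -0.35 ± 0.07 (SE; limma, adjusted p = 0.00194), with -0.20 in replicates 1 and 2, which did not pass alone, and -0.50 in replicates 3 and 4. On Tgif2 OE it was -0.05 ± 0.07 (limma, adjusted p = 0.662). In the knockdown, Egr1 read 11.05 and 10.90 on shControl and 10.74 and 10.77 on Tgif1 KD, a change of -0.22 ± 0.10 that did not pass (limma, adjusted p = 0.116). The arrays did not overlap, but with 2 arrays a group this held for most of the FGF-ERK probe sets, called or not.

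Etv4 and Etv5 encode ETS factors of the PEA3 group, widely used as readouts of FGF signalling. Neither was called against its control in any of the 3 comparisons. Etv4 read 8.93 and 8.94 on shControl and 9.02 and 8.99 on Tgif1 KD, a change of 0.07 with a 95% interval of -0.43 to 0.58. It read 8.52, 8.55, 8.29 and 8.24 on BirA control, 8.46, 8.57, 8.09 and 8.04 on Tgif1 OE, and 8.66, 8.68, 7.85 and 8.16 on Tgif2 OE. The groups overlapped, and replicates 3 and 4 were lower in each of them.

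The Etv5 probe sets differed from each other. Probe set 1450082_s_at read 9.23, 9.24, 9.34 and 9.17 on BirA control, 9.03, 8.64, 9.11 and 9.16 on Tgif1 OE, and 9.08, 9.23, 9.39 and 9.50 on Tgif2 OE. The other, 1420998_at, read 8.22, 8.22, 8.23 and 7.90 on BirA control, 7.98, 7.81, 7.93 and 7.96 on Tgif1 OE, and 8.43, 8.45, 8.13 and 8.33 on Tgif2 OE. On Tgif1 OE the changes were -0.26 and -0.22 (limma, adjusted p = 0.117 and 0.0835), and both passed with the set as a block (0.0311 and 0.0384) but not with the replicate number as a block or with array pair means. Without BirA control replicate 4, the low array of its group, the change of 1420998_at was -0.31 (limma, adjusted p = 0.0126). In the knockdown the probe sets changed by -0.17 and 0.27, in opposite directions and with no call.

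**Figure D4:**
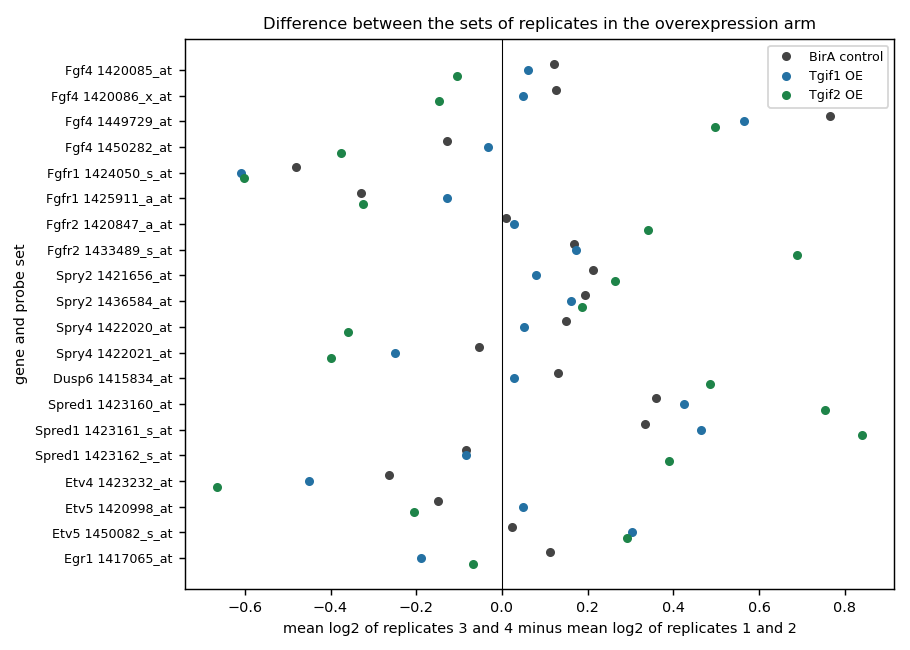
Mean log2 of replicates 3 and 4 minus that of replicates 1 and 2 (x axis) for each probe set (rows) in the 3 groups of the overexpression arm (colours). Fgfr1 1424050_s_at lies at -0.48, -0.61 and -0.60, Etv4 at -0.26, -0.45 and -0.66, and Spred1 1423161_s_at at 0.33, 0.46 and 0.84 on BirA control, Tgif1 OE and Tgif2 OE.

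The difference between the sets of replicates ran one way in all 3 groups for 14 of the 20 probe sets: 9 were higher in replicates 3 and 4 and 5 were lower. In Tgif2 OE the differences were larger for several genes, among them Fgfr2 1433489_s_at (0.69, against 0.17 on BirA control and 0.17 on Tgif1 OE) and Dusp6 (0.49, against 0.13 and 0.03). The sets were seen in the data and are not named in the labels, so these values are given with no test. The share of all probe sets that ran one way was not computed, so the 14 are not read as a trait of these genes.

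The effect of the knockdown was next set against that on the arrays labelled Tgif1 OE, a difference between comparisons that share no control arrays. Here 5 probe sets were higher and 1 lower (12.9% and 12.4% of all probe sets), and 8 and 3 with the set as a block (18.3% and 19.7%). Fgf4 differed most, by 1.01 ± 0.10 (SE; limma, adjusted p = 6.59e-06) and 1.00 ± 0.10 (4.45e-06), and both held with each array left out. The other calls were less firm, and those of Etv5, Spry2 and Fgfr2 came from the dimmer probe set of each gene. Without a block their brighter probe sets did not pass. These were Etv5 1450082_s_at (0.09, limma adjusted p = 0.780), Spry2 1436584_at (0.23, 0.221) and Fgfr2 1433489_s_at (-0.59, 0.142). Fgf4 1450282_at (0.58, adjusted p = 0.0208) was lost without Tgif1 KD replicate 1 or 2 or shControl replicate 1 (highest 0.0989), and Etv5 1420998_at (0.49, 0.0222) without any 1 knockdown-arm array (highest 0.0853). Spry2 1421656_at (0.42, 0.0492) was lost in 9 of 12 such fits (highest 0.190) and Fgfr2 1420847_a_at (-0.52, 0.0459) in 10 of 12 (highest 0.195); each of the 4 knockdown-arm arrays was among those that ended either call. With the replicate number as a block, Spry2 1436584_at (0.23, adjusted p = 0.04997) and Spred1 1423160_at (0.45, 0.0490) and 1423161_s_at (0.65, 0.0173) passed as well. The effects on Dusp6 did not differ by a detectable amount: the difference was -0.01 ± 0.18 (limma, adjusted p = 0.982), with a 95% interval of -0.39 to 0.37.

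The arrays labelled Tgif1 OE and Tgif2 OE were also compared directly. Of the 20 probe sets, 0 were higher on Tgif1 OE (limma; 4.19% of all probe sets) and 2 were lower (4.38%), with 6 at an unadjusted p under 0.05 in either direction. Egr1 was lower on Tgif1 OE by 0.31 ± 0.07 (SE; limma, adjusted p = 0.0118), which held with each array left out. It was lost with array pairs as a random block (limma, adjusted p = 0.102), with array pair means (0.270) and in replicates 1 and 2 alone. Etv5 1420998_at was lower by 0.31 ± 0.09 (0.0389), which was lost without any array but Tgif2 OE replicate 3 (-0.27 to -0.33, highest adjusted p 0.110). The brighter Etv5 probe set 1450082_s_at differed by -0.21 with no call. With the set as a block 0 were higher and 5 lower (9.91% and 10.4% of all). The additional probe sets were Fgfr1 1424050_s_at (-0.14, adjusted p = 0.0405) and 1425911_a_at (-0.37, 0.0174; 0.0272 with the replicate number) and Fgfr2 1433489_s_at (-0.37, 0.0450), of which only 1425911_a_at also passed with the replicate number. For Fgf4 1420085_at the difference was -0.06 with a 95% interval of -0.18 to 0.06.

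Across all 5 groups, after each array's shift was removed, Fgf4 1420085_at was highest on Tgif1 KD (11.43 ± 0.07, SD, n = 2), followed by BirA control (10.80 ± 0.05, n = 4), shControl (10.70 ± 0.01), Tgif2 OE (10.53 ± 0.10) and Tgif1 OE (10.47 ± 0.04), and only the last neighbours in this order overlapped. Dusp6 ran from 11.00 on Tgif1 OE to 10.10 on shControl. Tgif1 OE overlapped Tgif2 OE, and Tgif2 OE overlapped Tgif1 KD, while Tgif1 KD, BirA control and shControl followed in this order without overlap. Some genes differed between the control groups: Fgfr2 1433489_s_at was 5.23 on shControl and 6.08 on BirA control, Spry4 1422021_at 7.46 and 6.87, and Etv4 8.94 and 8.43. These are levels from separate arms, in which the construct and any difference in handling cannot be told apart.

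The rest of the pathway was read from 5 gene lists that include the 10 genes, taking for each gene the probe set that was brightest on average. In the knockdown 12.1% of all genes rose and 12.4% fell on this measure. Of 14 FGF ligand genes 1 rose and 4 fell (median -0.04), of 6 receptor genes 1 rose and 1 fell (0.00), and of 14 genes of the ERK cascade 2 rose and 1 fell (0.07). Among 15 feedback inhibitor genes 3 rose and 3 fell (0.01), and among 21 genes of ERK-responsive transcription factors and immediate-early products 2 rose and 3 fell (-0.17). Examples outside the 10 genes are limited, by a choice made after their values were seen, to calls that held with each array left out. Fgf18 fell by 1.44 ± 0.22 (limma, adjusted p = 2.33e-04) and Fgf15 by 0.87 ± 0.11 (3.31e-05), both secreted FGFs. Dusp1, a nuclear MAP kinase phosphatase gene, rose by 1.17 ± 0.12 (5.33e-06), and Rasa2, a RAS GTPase-activating protein gene, fell by 0.48 (0.00111). Fos (1.93 ± 0.23, 2.83e-05) and Phlda1 (1.59 ± 0.27, 5.13e-04) rose and Myc fell by 1.07 ± 0.11 (5.68e-06). Fgfr3, a receptor gene, fell by 0.78 ± 0.15 (limma, adjusted p = 0.00140) with its brighter probe set, while the dimmer one changed by -0.03 with no call. Sos2, which encodes a RAS exchange factor, rose by 2.10 ± 0.21 (4.45e-06). Sos2 also rose on Tgif1 OE, by 0.71 ± 0.15 (limma, adjusted p = 0.00309), which held with each array left out. Its rise on Tgif2 OE, by 0.43 ± 0.15 (limma, adjusted p = 0.0469), did not hold in this way.

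On the arrays labelled Tgif1 OE, 10.9% of all genes rose and 8.99% fell. Of the feedback inhibitor genes 6 of 15 rose and 0 fell (limma; median 0.15), of the receptor genes 2 of 6 rose and 0 fell (0.22), and of the ligand genes 1 rose and 3 fell (-0.04). The falls of Spry2 and Spry4 described above are not among these counts, because each came from a probe set that was not the gene's brightest. The ERK cascade list had 2 higher and 2 lower (0.01) and the transcription factor list 5 higher and 3 lower (0.12). Dusp7 (0.53 ± 0.11, adjusted p = 0.00338) and Dusp9 (0.49 ± 0.08, 5.37e-04), both ERK phosphatase genes, rose beside Dusp6, though the other probe sets of Dusp7 did not pass. Jun rose by 1.66 ± 0.22 (9.45e-05) and Phlda1 by 1.05 ± 0.19 (0.00118). Fgf17, a secreted FGF gene, fell by 0.47 ± 0.10 (0.00312), and Fgfrl1, a receptor without a kinase domain, rose by 0.39 ± 0.09 (0.00487). With replicates 1 and 2 averaged to 1 value, and likewise 3 and 4, the calls of Dusp7 (adjusted p = 0.111), Fgf17 (0.0954), Fgfrl1 (0.101) and Phlda1 (0.0507) were lost, and those of Dusp9 and Jun passed.

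On those labelled Tgif2 OE, 13.6% of all genes rose and 12.3% fell. Of the feedback inhibitor genes 5 of 15 rose and 0 fell (limma; median 0.20), of the receptor genes 2 of 6 rose and 0 fell (0.29), and of the ligand genes 2 rose and 5 fell (-0.08). Here the falls of Spry2, Spry4 and Spred1 again came from dimmer probe sets and are not counted. The cascade list had 2 higher and 1 lower (0.02) and the transcription factor list 4 higher and 1 lower (0.07). Rasa2 (0.57 ± 0.06, adjusted p = 1.83e-05), Dusp9 (0.43 ± 0.08, 0.00150) and Dusp1 (0.33 ± 0.08, 0.0101) rose, as did Jun (1.49 ± 0.22, 1.79e-04) and Fgfrl1 (0.64 ± 0.09, 1.47e-04). Phlda1 (0.90 ± 0.19, limma adjusted p = 0.00325) and Egr2 (0.45 ± 0.12, 0.0108) were higher as well. Egr2 was dim, with means of 4.22 on BirA control and 4.67 on Tgif2 OE after the shift was removed. Fgf15 fell by 0.55 ± 0.08 (1.40e-04) and Araf, a RAF kinase gene, by 0.82 ± 0.08 (4.65e-06). Fgf13, a homologue of the FGFs that stays inside the cell, rose by 1.24 ± 0.16 (7.36e-05) here and by 1.22 ± 0.16 (1.01e-04) on Tgif1 OE with its brighter probe set, while the dimmer one changed by -0.21 and 0.07 with no call. With the pairs of replicates averaged, the Tgif2 OE calls of Dusp9 (limma, adjusted p = 0.0547), Dusp1 (0.130), Phlda1 (0.0726) and Egr2 (0.110) were lost. The others named here passed, as did Fgf13 on Tgif1 OE. With the set as a block, the brightest probe sets also counted 1 feedback inhibitor gene lower on Tgif1 OE (Spry4) and 2 on Tgif2 OE (Spry2 and Spred1).

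**Figure D5:**
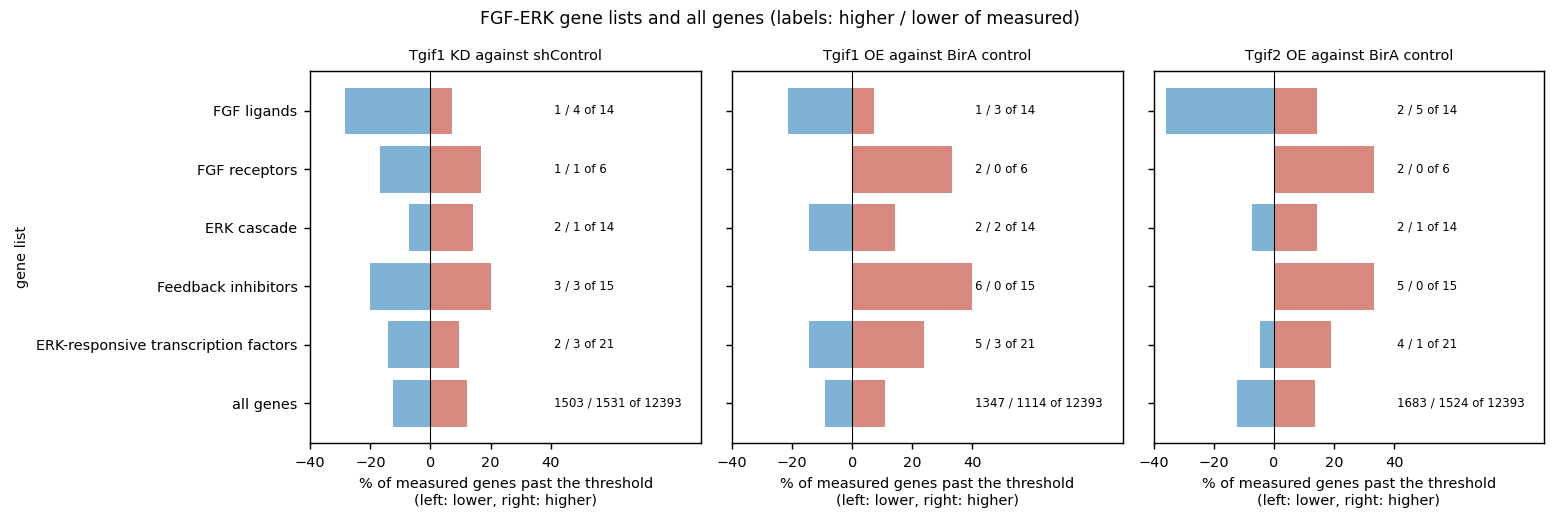
Share of measured genes past the threshold (x axis, higher to the right and lower to the left of 0) in each FGF-ERK gene list and among all genes (rows), for the 3 comparisons with a control (panels), with counts at the right edge. Feedback inhibitor genes were higher in 6 and 5 of 15 cases and lower in 0 on the overexpression arrays by their brightest probe sets, and 3 and 3 in the knockdown.

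Genes whose values over the 16 arrays ran closest to those of the FGF-ERK genes were named by Pearson correlation, as a description. These points share groups and sets of replicates, which raises any correlation. The closest to Fgf4 were Thtpa (r = 0.97) and Golm1 (0.96), to Fgfr2 Ptn (0.98) and Hnrnpa2b1 (0.98), to Fgfr1 Hccs (0.95) and Mapk8ip1 (0.93), and to Dusp6 Stag2 (0.97) and Cebpd (0.96). Spry4 ran with Brca2 (0.97) and Bcas3 (0.95), Etv4 with Arvcf (0.96) and Cpsf1 (0.96), Etv5 with Sae1 (0.95) and Crnkl1 (0.90), and Spred1 with Dido1 (0.92) and Knop1 (0.89). For Egr1 they were Zfp296 (0.91) and Map1lc3b (0.90) and for Spry2 Prmt3 and Surf1 (0.90 each). Among the 10 genes themselves, Dusp6 and Fgfr2 ran together (r = 0.78) and Dusp6 and Spry4 ran opposite (-0.86), while Fgf4 and Dusp6 had r = -0.37.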

How the data were processed

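Total RNA of 16 samples was measured on 1 array each. The authors deposited 1 log2 value per probe set and array, obtained by RMA (background correction, quantile normalization and summary of the probes) per the submitters' processing notes. For the Tgif2 OE samples limma is listed too, and any difference in their processing cannot be told apart from the label. Removing a median shift takes away only a difference common to all probe sets of an array. No versions are given in the sources used here. Of 22690 probe sets, 64 controls, 691 with several symbols in the 2016 platform annotation and 1555 with none were left out. The FGF-ERK genes, the gene lists and the tests were chosen with earlier results of these data known.

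One mean per group was fitted over all 16 arrays with limma 3.58.1 (lmFit, eBayes, R 4.3.3), and p-values were adjusted by Benjamini-Hochberg over 20380 probe sets. Comparisons that involve Tgif2 OE used values from which each array's median deviation from the probe-set means had been subtracted, and the others used deposited values. The fit was tested on simulated data in which arrays varied independently. That test does not cover the sets of replicates seen in the real data. The number of arrays limits the precision. All FGF-ERK probe sets are reported. Beside them the rule takes Tgif1, Tgif2, up to 3 called genes per list with the largest change, and the 2 genes closest in correlation to each.

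Replicate numbers are shared between groups. In the overexpression arm the deviations of same-numbered arrays from their group means correlated with r from 0.31 to 0.56 over 12 pairs. Arrays with another number of the same set gave 0.31 to 0.57 and those of the other set -0.57 to -0.31. Each array's best match in another group had its own number in 4 of 24 cases. In the knockdown arm r was 0.003. Alternatives covered the normalization, the probe sets, the variance model, blocks and single arrays left out.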

Additional observations from a re-analysis of the deposited data

Results flagged for a closer look

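In Etv5 probe set 1420998_at, BirA control replicate 4 (7.90, beside 8.22, 8.22 and 8.23) stood apart from its group, with a gap of 0.948 of the group's range, which is above Dixon's 95% critical value. This was 1 of 60 groups of 4 arrays looked at, and chance alone gives about 1 in 20.

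Several changes differed between conditions by a limma test of the difference itself. Between the arrays labelled Tgif1 OE and Tgif2 OE these were Etv5 1420998_at (-0.31) and Egr1 (-0.31). Between the effect of the knockdown and that on the arrays labelled Tgif1 OE they were Fgf4 1420085_at (1.01), 1420086_x_at (1.00) and 1450282_at (0.58), Fgfr2 1420847_a_at (-0.52), Spry2 1421656_at (0.42) and Etv5 1420998_at (0.49). The brighter probe sets of Fgfr2, Spry2 and Etv5 did not pass in the comparisons named here.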

How the results depend on the processing

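Of 1935 recomputed changes of single FGF-ERK probe sets, 1659 kept their direction and their side of the threshold, 145 lost and 68 gained a call, 63 without a call changed sign and 0 with a call did. Counts of called probe sets moved more, and fewer were counted by construction where each gene had 1 value. For the knockdown the count was 5, and 3 with 1 probe set per gene or the mean of a gene's probe sets, 8 and 9 with overexpression replicates 1 and 2 or 3 and 4 alone, and 2 to 3 with 1 array left out. For Tgif1 OE it was 8, and 4 with 1 probe set per gene, 4 with array pairs (replicates 1 and 2, 3 and 4) as a random block, 0 with array pair means (limma, 9 at an unadjusted p under 0.05) and 13 with the set of replicates as a block; with 1 array left out it was 6 to 8. For Tgif2 OE it was 9, and 5 on deposited values, 3 with 1 probe set per gene, 5 with the mean, 4 with only the groups compared, 4 with the random block, 2 with pair means, 14 with the set as a block and 5 to 7 with 1 array left out. For Tgif1 OE against Tgif2 OE it was 2, and 4 on deposited values, 1 with 1 probe set per gene, 1 with only the groups compared, 0 with the random block (3 unadjusted) or pair means (2 unadjusted), 5 with the set as a block and 1 to 2 with 1 array left out. For the knockdown effect minus the Tgif1 OE effect it was 6, and 1 with 1 probe set per gene or the mean, 3 with the random block or pair means, 10 with replicates 1 and 2 alone, 11 with the set as a block and 2 to 6 with 1 array left out. Except where fewer values or arrays were tested, the cause was not tested. The replicate block gave 5, 11, 12, 3 and 9 in the same order. It ended 0 calls and added those named beside the results. Among all probe sets, pair means cut the calls from 3801 to 1055 for Tgif1 OE and from 4915 to 1477 for Tgif2 OE, and the set as a block raised them to 6151 and 7389.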
